A study of Mus musculus with 39 samples.

Results

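Testes of 2-month-old mice in which an Amh:Cre transgene was combined with floxed Prkar1a (Amh:Cre, Prkar1a fl/fl, called srKO) were compared with testes of wild-type littermates (WT) of the same age. The comparison held 12 of the 39 arrays in the series, 4 from srKO and 8 from WT, chosen by their titles, and it covered the 19007 genes that had a probe set with a single symbol and passed a filter on dim signals. Each array measured total RNA of a whole testis and was labelled a biological replicate, and the labels do not say whether animals were pooled. Other groups used here were WT (8 arrays) and srKO (4) at 2 weeks, and lines with Sf1:Cre or Cyp11a1:Cre on the same floxed Prkar1a. The Sf1:Cre line (prKO) had 3 arrays at 2 months and 4 at 2 weeks. The Cyp11a1:Cre line (lrKO) had 4 at each age. The 2-week prKO arrays entered the filter on dim signals, the fit of all 8 groups and the plot of 12 genes by group and age. WT carried no stated allele or agent. One label names adrenal glands as the source of the extracted RNA, whereas the tissue label of every array is whole testis, and germ cell genes such as Prm1 and Tnp1 were bright on all 12 arrays.

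Prkar1a encodes the type I alpha regulatory subunit of protein kinase A (PKA), which holds the catalytic subunits inactive until cAMP binds. In the testis, FSH signals through cAMP in Sertoli cells, the supporting cells of the seminiferous tubules, and LH signals through cAMP in Leydig cells, the androgen-making cells between tubules. The Amh promoter drives Cre in Sertoli cells, the Cyp11a1 promoter in Leydig cells, and the Sf1 promoter in somatic precursors that give rise to both.

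Values are log2 intensities normalized by RMA, a method that corrects background, equalizes arrays and summarizes the probes of a set. Differences are srKO minus WT on that log2 scale with their standard error, and a gene was called when its Benjamini-Hochberg adjusted p in limma was under 0.05 over all 19007 genes. Array medians lay between 5.81 and 5.92. Correlations between arrays of a group, across genes, lay between 0.980 and 0.994. The epididymis gene Adam7 was above 5 on WT arrays 4 and 7 and on srKO array 1 and at most 4.50 on the other 9, so the counts of the srKO and WT comparison were also taken without these 3 arrays. Within WT at 2 months, arrays 5 to 8 differed from arrays 1 to 4 in 407 genes (155 higher, 252 lower), so that counts were also taken with each set of 4 as the only controls.

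The targeted gene was not lower in the arrays labelled srKO at 2 months. Prkar1a read 8.98, 9.10, 9.18 and 9.08 on the 4 srKO arrays and 8.61 to 9.00 on the WT arrays, with a median of 8.88. The groups overlapped, with 3 of the 4 srKO arrays above every WT array. The difference was 0.24 ± 0.08 (limma, Benjamini-Hochberg adjusted p = 0.030), and it missed the threshold without any one of srKO arrays 2, 3 or 4 or WT arrays 3 or 4 (0.21 to 0.24, adjusted p = 0.0502 to 0.096). It also missed the threshold with each array centred on its median (0.21, adjusted p = 0.067) and with WT arrays 5 to 8 alone (0.12, adjusted p = 0.32). At 2 weeks the arrays labelled srKO were lower than WT by the same probe set, at -0.48 ± 0.07 (limma, adjusted p = 0.0022). Where this probe set lies relative to the floxed exons is not given in the sources used here, and every direction below is that of arrays labelled srKO. In whole testis, fewer cells of a type and less RNA per cell cannot be told apart, and this holds for each gene that follows.

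The cAMP response element is the palindrome TGACGTCA, which CREB family factors bind, and it was searched on both strands in RefSeq promoter windows of 300 bases (250 before to 50 after a start, GRCm38.p6). Of the 139 genes chosen for naming, 101 had a window, and full elements stood in the windows of H2-Aa and Prkar1a, which are shown because they are the 2 that hold it. H2-Aa encodes an MHC class II chain, and the element, in capitals, begins 74 bases before its start at chr17:34287844-34287943 on the minus strand. For Prkar1a, at chr11:109650854-109650953 on the plus strand, the element begins 49 bases before 1 of its annotated starts, and it lies after the start in another of its 6 windows.
H2-Aa: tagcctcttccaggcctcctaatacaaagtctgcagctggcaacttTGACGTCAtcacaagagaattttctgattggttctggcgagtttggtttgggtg
Prkar1a: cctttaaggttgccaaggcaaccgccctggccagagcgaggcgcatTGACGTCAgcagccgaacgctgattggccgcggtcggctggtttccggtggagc
Among all 14664 tested genes with a window, 2.93% held the full element and 29.6% held its shorter core (TGACG or CGTCA, which the full element contains). The full element stood in 2.79% of 2190 genes called higher, 3.45% of 1654 called lower and 2.88% of 10820 not called. The shorter core stood in 31.9%, 29.5% and 29.1% of them. In genes called at least 2-fold, the core stood in 18.4% of 98 called higher and 21.9% of 319 called lower. The full element stood in 1.02% and 4.39% of these. A match is a description of letters in the window, and the shares were not tested against each other.

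Among the 8 PKA subunits and inhibitors tested, 3 were called higher and 2 lower (62.5%, where 25.4% of all genes were called). The members called higher include Prkar1a, whose call was lost under the alternatives given above, and were 2 with centring or without WT array 3 or 4. Prkar2a, the type II alpha regulatory subunit, read 9.24, 9.03, 7.39 and 8.32 on the srKO arrays against 10.45 to 11.13 in WT (median 10.83). All 4 srKO arrays lay below every WT array, and the 4 also differed widely among themselves. The difference was -2.31 ± 0.24 (limma, adjusted p = 9.8e-07), a 4.97-fold lower signal. At 2 weeks Prkar2a read 8.05 to 9.10 in WT and 8.49 to 8.65 in srKO, both below every WT array of 2 months. The type II beta subunit Prkar2b went the other way at 2 months, at 8.50, 8.58, 8.35 and 8.40 in srKO against 7.01 to 7.58 in WT. It rose by 1.24 ± 0.11 (adjusted p = 1.6e-07) with tight arrays and no overlap. The PKA inhibitor Pkia rose by 0.89 ± 0.13 and the inhibitor Pkib fell by 0.98 ± 0.17. The catalytic subunits Prkaca (0.10) and Prkacb (0.14) and the regulatory subunit Prkar1b (-0.15) were not called.

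The phosphodiesterases, which degrade cAMP, had 2 of 16 members called higher and 2 lower (25%, where 25.4% of all genes were called). Their median difference was 0.01 against 0.03 over all genes. Pde7b read 6.76, 7.11, 7.37 and 7.21 in srKO and 5.15 to 5.94 in WT (median 5.75), with no overlap. It rose by 1.46 ± 0.20 (limma, adjusted p = 1.8e-05), and it was also higher at 2 weeks, by 1.87. Pde10a rose by 0.40 ± 0.08, after a larger difference of 1.28 at 2 weeks. Pde1a, a calcium-calmodulin phosphodiesterase, fell by 0.71 ± 0.12. Pde4a was the other member called lower (-0.29 ± 0.10, adjusted p = 0.031), a call lost without any one of srKO arrays 1, 2 or 4 or WT arrays 1 or 5 (-0.31 to -0.26, adjusted p = 0.054 to 0.10), or with either set of 4 WT arrays alone.

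Of 20 genes that respond fast to cAMP and CREB, 5 were called higher and 3 lower (40%, against 25.4% of all genes). Their median was -0.02. Rgs2, which limits G-protein signalling, rose by 0.50 ± 0.11. Crem, whose isoforms drive spermatid transcription, fell by 0.46 ± 0.09, from 9.74 to 10.01 in WT to 9.35, 9.43, 9.53 and 9.53 in srKO. The count of 8 became 5 without srKO array 2 or without srKO array 3, and 3 with WT arrays 1 to 4 alone. Fos, Ier2 and Btg2 were among the members called higher and Nr4a3 among those called lower.

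Over all genes, 4837 were called (25.4%), 2785 higher (14.7%) and 2052 lower (10.8%). The share of calls that were higher, 57.6%, became 50.8% with each array centred on its median (2246 higher, 2172 lower). Large changes ran mostly downward: 524 called genes (2.76%) differed at least 2-fold, 130 higher and 394 lower. Arrays of the groups did not overlap for 1809 genes higher in srKO (9.52%) and 1397 lower (7.35%). The count of called genes was 3742 without the 3 arrays high in Adam7 and 3514 without srKO array 2.

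The 12 largest rises among named genes were in Serpina3n, Timp1, Slc38a1, Cnn3, Aplp1, C4b, Ces2g, Scin, Clca3a2, Cyp21a1, Il1r1 and Il13ra1. Serpina3n, a secreted acute-phase serpin, read 8.47, 10.34, 8.34 and 8.96 in srKO and 5.36 to 7.11 in WT, with a median of 5.77. It rose by 3.14 ± 0.35 (limma, adjusted p = 2.4e-06), an 8.79-fold difference. No pair of arrays from the 2 groups overlapped, although WT array 1 stood above the other WT arrays.
Timp1, a secreted inhibitor of metalloproteinases, read 7.14, 8.23, 6.97 and 7.54 against 4.49 to 5.25. Its rise was 2.48 ± 0.23 (adjusted p = 2.7e-07), or 5.57-fold. Cnn3, an actin-binding calponin, rose 4.40-fold, and the carboxylesterase Ces2g rose 3.85-fold. Ces2g had the narrowest srKO group among these, with 7.40 to 7.69 against 5.46 to 5.81 in WT. Scin, an actin-severing protein, rose 3.74-fold, and the amyloid precursor-like gene Aplp1 3.95-fold. Clca3a2 had the widest error of the 12 (1.85 ± 0.51, adjusted p = 0.010) and missed the threshold without srKO array 2 (1.59, adjusted p = 0.054) and with WT arrays 5 to 8 alone (1.76, adjusted p = 0.080).

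The 12 largest falls were in Prnd, Car2, Bpifa3, Hmgb1-rs17, Klk1b8, Oxct2b, Nudt16l2, Efcab1, Lexm, Dydc2, Fbxo39 and Tex44. Prnd encodes doppel, a relative of the prion protein made in the testis and needed for male fertility. It read 5.67, 6.43, 6.37 and 6.07 in srKO and 9.39 to 10.12 in WT, with a median of 9.80. By the brighter of its 2 probe sets it fell by 3.60 ± 0.14 (limma, adjusted p = 2.9e-12), 12.1-fold. With the 2 probe sets averaged the difference was -1.77, and the call was kept. As the average is much smaller in size, the other probe set showed little or no fall.
Car2, carbonic anhydrase II, read 8.22, 7.53, 5.52 and 7.03 against 10.05 to 10.72. It fell by 3.41 ± 0.38 (adjusted p = 1.9e-06), 10.6-fold, with srKO arrays spread over a wider range than WT. Oxct2b, a ketone-body enzyme of haploid germ cells, read 8.20, 7.61, 5.68 and 6.79 against 9.60 to 10.37. Its fall was 2.96 ± 0.29, and the difference was -1.90 with its 2 probe sets averaged. Hmgb1-rs17 is related in sequence to Hmgb1, so its probe set may share signal with other copies. It showed the widest srKO group of the 12, with 7.56, 7.30, 3.87 and 5.28 against 8.87 to 9.23.

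In all 24 genes the groups were apart, where over all genes 9.52% were apart with srKO higher and 7.35% with srKO lower. The 24 were picked as the largest called differences on these same arrays. Their separation and the calls kept under alternatives therefore follow largely from the choice. In 11 of the 12 falls srKO array 3 was the lowest, and in 11 of the 12 rises srKO array 2 was the highest. Of these 24 calls, that of Clca3a2 was lost under at least 1 alternative and the other 23 were kept under each alternative run.

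**Figure D1:**
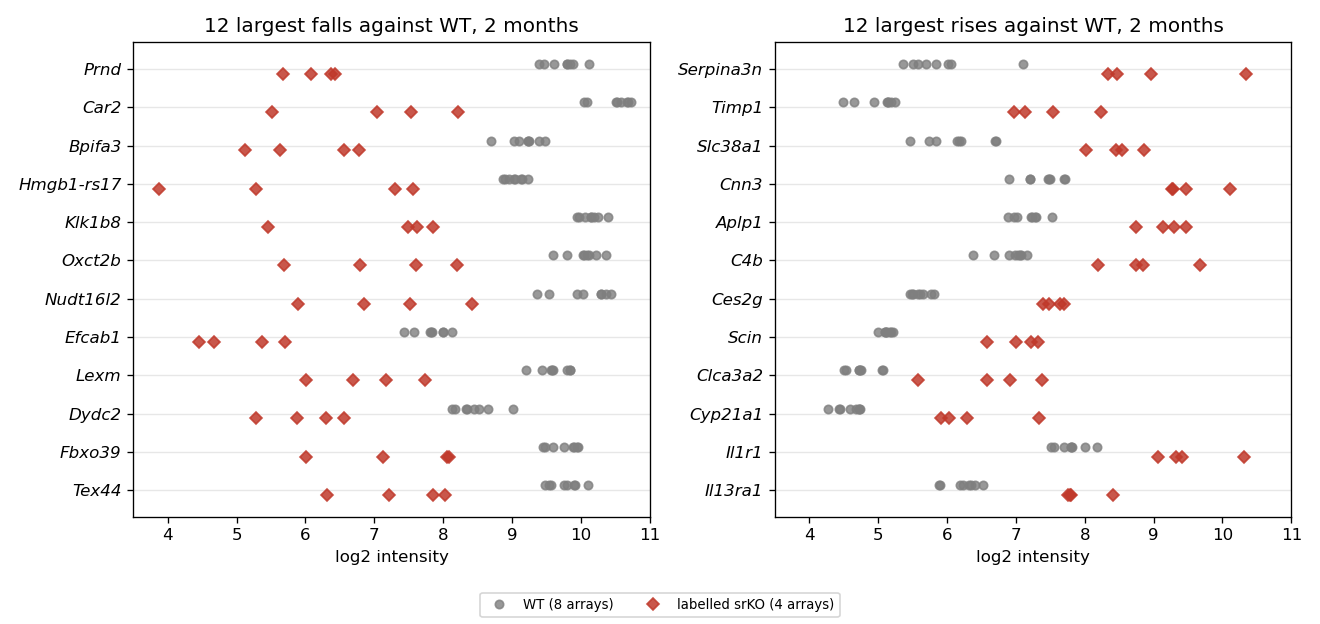
Log2 intensity (horizontal axes) on single arrays for the 12 largest falls (left) and the 12 largest rises (right), with 8 WT arrays as grey circles and 4 arrays labelled srKO as red diamonds. The genes were picked for the size of their difference on these arrays. In each gene the groups lie apart, and Prnd is 5.67 to 6.43 in srKO against 9.39 to 10.12 in WT.

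Among Sertoli cell genes, the FSH, inhibin and activin axis had 4 of 12 called higher and 1 lower (41.7%, against 25.4% of all genes). Inha, the inhibin alpha subunit by which Sertoli cells signal back to the pituitary, read 9.97, 10.11, 10.05 and 10.09 in srKO against 8.39 to 8.85 in WT (median 8.80). It rose by 1.36 ± 0.12 (limma, adjusted p = 1.5e-07), 2.56-fold, with no overlap. The FSH receptor Fshr read 5.74, 5.91, 5.93 and 6.07 against 6.74 to 7.35 (median 6.93). It fell by 1.09 ± 0.12 (adjusted p = 2.4e-06), 2.13-fold, again with no overlap. The activin and inhibin beta subunits Inhba (-0.09) and Inhbb (0.34), and Amh (-0.22), whose promoter drives Cre here, were not called. The count of 5 was 3 without any one of srKO array 2 or WT arrays 2, 5 or 6, with centring, or with either set of 4 WT arrays alone, whereas Inha and Fshr were called under every alternative.

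Of 13 transcription factors of Sertoli identity, 3 were called higher and none lower (23.1%, where 25.4% of all genes were called). Nr5a1, which encodes SF1, read 7.83, 8.37, 7.83 and 7.84 against 7.23 to 7.40 and rose by 0.65 ± 0.13 (limma, adjusted p = 0.0012). Nr0b1, which encodes the repressor DAX1, rose by 0.52 ± 0.11. Gata4 was the other gene called (0.46 ± 0.13, adjusted p = 0.015), a call lost without srKO array 2 (0.40, adjusted p = 0.071) and with WT arrays 1 to 4 alone (0.43, adjusted p = 0.084). Sox9 (0.19), Wt1 (0.22), Sox8 (0.03) and Dmrt1 (-0.30) were not called.

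Secreted Sertoli products and genes known to depend on androgen had 8 of 15 members called higher and 3 lower. This is 73.3%, against 25.4% of all genes, and the median was 0.37. Defb36, a beta-defensin, read 9.42, 9.67, 9.49 and 9.42 against 8.01 to 8.74 and rose by 1.11 ± 0.15. Shbg, the androgen-binding protein, read 8.89, 8.94, 8.96 and 9.00 against 7.92 to 8.30 and rose by 0.80 ± 0.12 (limma, adjusted p = 4.3e-05). Both had all srKO arrays above all WT arrays. The androgen-dependent homeobox gene Rhox5 fell by 0.70 (adjusted p = 6.3e-05) and the protease inhibitor Eppin fell by 0.75 (adjusted p = 0.0076). Prnd, given above, was the member with the largest difference, while Tubb3 rose by 0.84 and Clu by 0.37.

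Junction genes had 5 of 13 members called higher and none lower (38.5%, against 25.4% of all genes). The count was 3 with WT arrays 1 to 4 alone. Cldn11, the claudin of the blood-testis barrier, read 10.86, 11.13, 10.62 and 10.87 against 9.90 to 10.23. It rose by 0.77 ± 0.11 (limma, adjusted p = 4.1e-05) with no overlap. Vim (vimentin) rose by 0.77 ± 0.14 and the adhesion molecule Jam3 by 0.49 ± 0.10, while Gja1 (-0.07), Tjp1 (0.11) and Ocln (0.02) were not called.
Niche factors that Sertoli cells supply to germ cells had 4 of 15 called higher and none lower (26.7%, where 25.4% of all genes were called). Kitl, the ligand of Kit, read 8.19, 8.45, 8.19 and 8.27 against 6.69 to 7.79 and rose by 0.98 ± 0.13 (adjusted p = 1.7e-05). Csf1, the macrophage growth factor, rose by 0.73 ± 0.12 and the chemokine Ccl9 by 1.09 ± 0.20, whereas Gdnf (0.18) and Cxcl12 (0.29) were not called.

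Genes of spermatids were mostly lower. Of 34 tested, 20 were called lower and 1 higher (61.8%, against 25.4% of all genes), with a median difference of -0.53. The protamine Prm1, which packs sperm DNA, read 10.35, 9.79, 7.69 and 9.20 in srKO and 11.27 to 11.81 in WT, with a median of 11.67. It fell by 2.33 ± 0.31 (limma, adjusted p = 1.4e-05), 5.05-fold. The groups did not overlap, and srKO array 3 was the lowest in Prm1 as well as in the transition proteins.
Tnp1, a transition protein that precedes protamines, read 11.24, 10.87, 8.58 and 10.10 against 11.85 to 12.30 and fell by 1.89 ± 0.31. Tnp2 fell by 1.84 ± 0.32. Tssk6, a kinase of elongating spermatids, read 7.49, 6.88, 6.00 and 6.73 against 8.75 to 9.33 and fell by 2.23 ± 0.20, 4.69-fold. Prm3 (-1.78), the antizyme Oaz3 (-1.27), the flagellar anchor Akap4 (-1.16), the linker histone Hils1 (-1.12) and the sperm glycolytic enzyme Gapdhs (-0.91) were also called lower.
Of the 13 members that were not called, the acrosomal protease Acr differed by 0.13, Crisp2 by -0.01, Zpbp2 by 0.00, Spata16 by 0.02 and Odf1 by 0.07, with overlapping arrays. Dpy19l2, needed to form the sperm head, was the member called higher (0.23, limma, adjusted p = 0.0496), a call lost without any one of the 4 srKO arrays.

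Meiotic and spermatogonial genes were called at shares near or below the background of 25.4%. Meiotic prophase genes had 3 of 28 called higher and 4 lower, with a median of 0.02. Syce2, a synaptonemal complex protein, read 9.98, 9.88, 9.38 and 9.64 against 10.37 to 10.61 and fell by 0.75 ± 0.10 (limma, adjusted p = 8.8e-06). Pgk2, a glycolytic gene that spermatocytes switch on, fell by 0.62 ± 0.08. The meiotic count of 7 was 4 without srKO array 2 or 3, 3 with WT arrays 5 to 8 alone and 12 after a further quantile normalization. Spermatogonial genes had 1 of 21 called higher and 3 lower, with a median of -0.12. Lhx1 fell by 0.42 ± 0.10 and Pou5f1 by 0.34 ± 0.08, while Kit, Zbtb16, Gfra1 and Stra8 were not called. The spermatogonial count of 4 was 8 without srKO array 1 and 2 without srKO array 4, and 7 with WT arrays 1 to 4 or 2 with WT arrays 5 to 8 alone.

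Genes that rise between 2 weeks and 2 months in lrKO made up most of the falls. This was read from lrKO, whose arrays are on neither side of the srKO and WT contrast, as a description chosen after the values had been seen. The 2-month lrKO arrays did enter the shared estimate of the spread behind the calls. Between 2 weeks and 2 months in lrKO, 13.8% of all tested genes became at least 2-fold higher, against 58.1% of the 2052 genes called lower in srKO and 1.33% of the 2785 called higher. Among the 394 genes called lower at least 2-fold, 368 (93.4%) rose that much with age in lrKO. In the other direction, 17.5% of all genes became at least 2-fold lower with age, against 46.7% of those called higher and 3.85% of those called lower. Both ages of lrKO entered these shares as group means only, and no test was made on the shares.

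**Figure D2:**
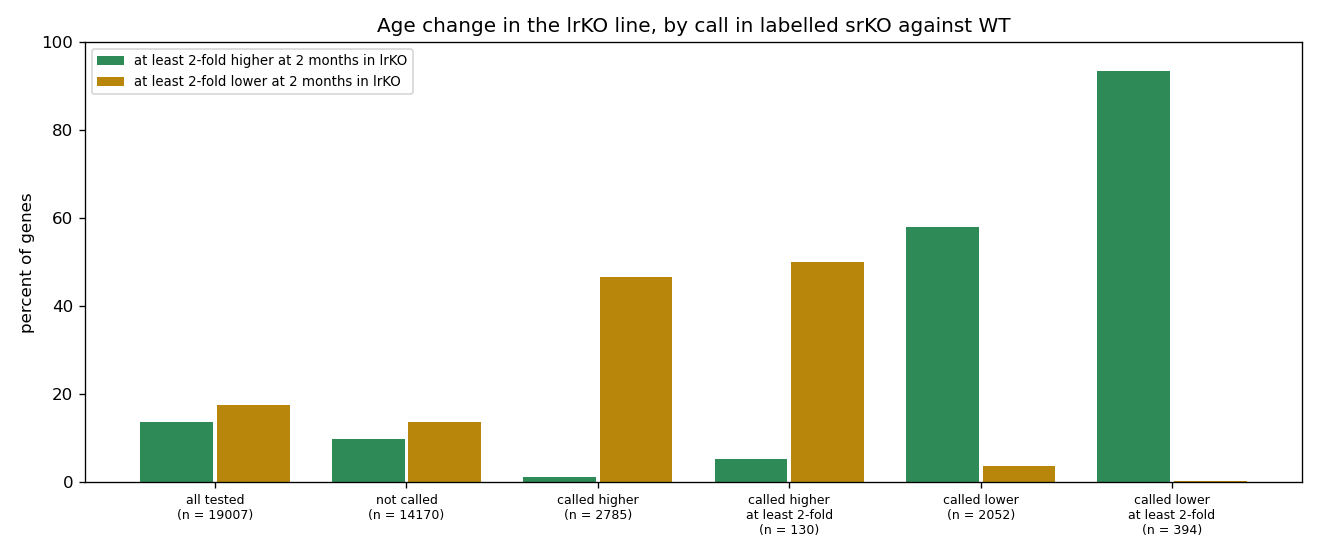
Percent of genes (vertical axis) that were at least 2-fold higher (green) or at least 2-fold lower (gold) at 2 months than at 2 weeks in lrKO, for classes of genes by their call in srKO against WT at 2 months. The green share is 13.8% over all genes and 93.4% among genes called lower at least 2-fold.

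Leydig cell genes were partly higher. Steroidogenic enzymes and carriers had 5 of 10 members called higher and 1 lower (60%, against 25.4% of all genes). Their median was 0.35. The members called higher were 3 without srKO array 1, without srKO array 2 or with WT arrays 1 to 4 alone. Cyp11a1, which makes pregnenolone from cholesterol, read 10.95, 11.57, 11.10 and 11.14 against 10.00 to 10.45 and rose by 0.96 ± 0.13 (limma, adjusted p = 1.8e-05). Hsd17b3, which makes testosterone, read 10.14, 10.87, 10.31 and 10.10 against 9.15 to 9.80 and rose by 0.92 ± 0.19 (adjusted p = 0.0012). In both, the groups were apart.
The 3-beta-hydroxysteroid dehydrogenases differed in sign. Hsd3b6, the form of adult Leydig cells, read 8.43, 8.99, 9.77 and 8.52 against 9.69 to 10.40 and fell by 1.17 ± 0.28 (adjusted p = 0.0036), a call lost with WT arrays 5 to 8 alone (-1.03, adjusted p = 0.056). Hsd3b1 read 8.41, 9.04, 7.88 and 8.54 against 7.01 to 7.92 and rose by 0.99 ± 0.21 (adjusted p = 0.0013). Each pair of groups overlapped by 1 srKO array, and the 2 genes are near-identical in parts, so probes may share signal. Star (0.55, adjusted p = 0.069) and Cyp17a1 (0.00) were not called.
Of 12 genes that mark or regulate the Leydig lineage, 4 were called higher and none lower (33.3%, against 25.4% of all genes). The estrogen sulfotransferase Sult1e1 read 8.72, 8.93, 8.42 and 7.87 against 6.24 to 7.78 and rose by 1.38 ± 0.24 (limma, adjusted p = 0.00021). Vcam1 rose by 0.60 ± 0.14, the hedgehog receptor Ptch1 by 0.50 ± 0.09 and Nr2f2 by 0.44 ± 0.10.

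Cyp21a1, the steroid 21-hydroxylase of the adrenal cortex, was dim in WT and measured in srKO. It read 6.03, 7.34, 5.92 and 6.29 in srKO against 4.27 to 4.73 in WT (median 4.64), where the filter value for dim signals was 4.62. It rose by 1.82 ± 0.26 (limma, adjusted p = 3.4e-05), and the groups were apart. As 4 of the 8 WT arrays lay below the filter value, no fold is given. The other 3 adrenal genes tested (Mrap, Cyp11b1 and Cyp11b2) were not called, so 1 of 4 was called (25%, where 25.4% of all genes were called). Without srKO array 1, 2 of the 4 were called.

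Cholesterol genes had 3 of 19 called higher and 4 lower (36.8%, against 25.4% of all genes), with a median of -0.01. Abca1, a cholesterol exporter, read 9.76, 10.55, 9.82 and 9.81 against 8.57 to 8.89 and rose by 1.30 ± 0.12 (limma, adjusted p = 1.9e-07). Lipe, the hormone-sensitive lipase, read 8.42, 8.25, 7.52 and 7.73 against 9.23 to 9.69 and fell by 1.48 ± 0.15. Of the synthesis enzymes, Cyp51 fell by 0.87 ± 0.11 and Fdps by 0.63 ± 0.10, while Msmo1 was called higher.

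Granulosa cells are the ovarian counterpart of Sertoli cells. Genes of granulosa and ovarian fate had 5 of 15 called higher and none lower (33.3%, against 25.4% of all genes). The count was 3 without srKO array 2 or with either set of 4 WT arrays alone. Ccnd2, a cyclin of proliferating granulosa cells, read 8.64, 8.86, 8.65 and 8.45 against 6.63 to 7.19 and rose by 1.71 ± 0.19 (limma, adjusted p = 1.9e-06). Wnt4, an ovarian fate signal, read 6.97, 7.04, 6.99 and 6.91 against 5.78 to 6.12 and rose by 1.00 ± 0.13 (adjusted p = 9.6e-06). The groups were apart in both genes. Foxl2 (-0.10), the granulosa transcription factor, Rspo1 (-0.09) and Esr2 (-0.08) were not called. WNT targets and antagonists had 1 of 19 called higher (Dkk3) and 1 lower (10.5%, where 25.4% of all genes were called). The member called lower, Apcdd1, fell by 0.66 ± 0.14. Axin2, Lef1, Lgr5 and Sp5 were not called, and the count of 2 was 1 without srKO array 1 or with either set of 4 WT arrays alone, and 5 when only srKO and WT were fitted.

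Macrophage genes were mostly higher. Of 20 macrophage genes, 16 were called higher and 1 lower (85%, against 25.4% of all genes), with a median of 0.59. Their mean level was 6.94 to 7.48 on the srKO arrays against 6.46 to 6.66 on the WT arrays. Lyz2, the lysozyme of myeloid cells, whose probes may share signal with Lyz1, read 8.35, 9.25, 8.03 and 8.32 against 6.88 to 7.76 and rose by 1.32 ± 0.22 (limma, adjusted p = 0.00018). The complement gene C1qb rose by 1.00 ± 0.18 and the folate receptor Folr2 by 0.99 ± 0.13, both without overlap. Csf1r (0.85), Cd68 (0.92) and Adgre1 (0.68) were also called higher, as was Ccr2, while Fcgr3, Cd163 and Mrc1 were not called. Aif1 was the exception, at 9.44, 9.43, 9.25 and 9.48 against 10.04 to 10.82, a fall of 1.11 ± 0.15. Aif1 is made by macrophages and also in the germ line, and in WT it read 5.87 to 6.51 at 2 weeks. The part of macrophage number in these differences was not tested.

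Complement and acute-phase genes had 9 of 14 called higher and 1 lower (71.4%, against 25.4% of all genes). Their median was 0.70, and 0.47 without srKO array 2. C4b read 8.75, 9.67, 8.19 and 8.84 against 6.37 to 7.16 and rose by 1.95 ± 0.24 (limma, adjusted p = 5.4e-06), 3.87-fold. Serping1, the C1 inhibitor, rose by 1.36 ± 0.13 and the iron-carrier binder Lcn2 by 1.22 ± 0.13. The membrane regulator Cd55 fell by 0.56 (adjusted p = 0.0068). The cytokine receptors Il1r1 and Il13ra1, in the top rises above, rose by 1.73 ± 0.19 and 1.71 ± 0.17.
Interferon response genes had 8 of 10 called higher and none lower (80%, against 25.4% of all genes), with a median of 0.66. Without srKO array 4 the median was 0.39 and 6 were called. Oasl2 read 7.21, 7.59, 7.07 and 7.83 against 5.70 to 6.68 and rose by 1.27 ± 0.17 (adjusted p = 2.0e-05). Irf7 read 6.24, 6.74, 6.26 and 7.33 against 5.75 to 6.17, apart by a small gap, and rose by 0.67 ± 0.15. Isg15 (0.19) and Ifit3 (0.12) were not called.

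MHC class II genes had 3 of 7 called higher and none lower (42.9%, against 25.4% of all genes). H2-Aa, whose promoter is shown above, read 6.28, 7.28, 7.11 and 7.58 in srKO and 5.17 to 6.33 in WT (median 5.68). It rose by 1.34 ± 0.20 (limma, adjusted p = 5.8e-05), 2.54-fold, with srKO array 1 inside the WT range. Ctss, which trims the class II invariant chain, rose by 1.56 ± 0.19 and H2-Ab1 by 0.73 ± 0.15. The leukocyte gene Ptprc (CD45) read 5.85, 6.59, 5.67 and 5.82 against 4.74 to 5.35 and rose by 0.92 ± 0.17, while Cd3e, Cd3g and Cd4 were not called.

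Matrix and vessel genes were higher as well, and their counts leaned on srKO array 2. Collagens and basement membrane genes had 13 of 23 called higher and none lower (56.5%, against 25.4% of all genes). Without srKO array 2 or with WT arrays 5 to 8 alone 7 were called. Col4a1 read 7.24, 7.89, 7.26 and 7.44 against 6.13 to 6.53 and rose by 1.13 ± 0.13 (limma, adjusted p = 2.7e-06). Col4a2 rose by 1.12 ± 0.13, Lamc1 by 1.00 ± 0.17 and Col18a1 by 0.81 ± 0.10, each under every alternative. Small proteoglycans, metalloproteinases and TIMPs had 9 of 19 called higher and 1 lower (52.6%, against 25.4% of all genes). Without srKO array 2, 6 were called. Prelp rose by 1.17 ± 0.13 and Bgn (biglycan) by 0.76 ± 0.17.
Endothelial genes had 7 of 13 called higher and none lower (53.8%, against 25.4% of all genes). The count was 4 without srKO array 2 or 4 or with either set of 4 WT arrays alone. The VEGF receptor Kdr read 7.31, 8.05, 7.47 and 7.77 against 6.44 to 6.73 and rose by 1.08 ± 0.21 (adjusted p = 0.00081). Peritubular myoid genes had 3 of 10 called higher and 1 lower (40%, against 25.4% of all genes). Actg2, a smooth-muscle actin, read 8.90, 8.70, 8.62 and 8.62 against 9.49 to 10.25 and fell by 1.09 ± 0.11, whereas Acta2 rose by 0.45 ± 0.09. The myoid count of 4 was 2 without any one of WT arrays 1, 5, 6, 7 or 8 or srKO arrays 2, 3 or 4, and with centring or WT arrays 1 to 4 alone. Actg2 and Acta2 were called under every alternative.

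Metabolic genes were mixed. Amino acid transport and glutathione genes had 11 of 22 called higher and 1 lower (54.5%, against 25.4% of all genes). Their median was 0.35. Slc38a1, a glutamine transporter, read 8.45, 8.85, 8.54 and 8.02 against 5.46 to 6.71 and rose by 2.35 ± 0.26 (limma, adjusted p = 1.8e-06), 5.10-fold. Gpx1 rose by 0.73 ± 0.15 and Gstm2 by 0.72 ± 0.09, while Gpx4, which is abundant in spermatids, fell by 0.35 (adjusted p = 0.0018). The carbonic anhydrases had 2 of 10 called in each direction (40%, against 25.4% of all genes). Car7 fell by 0.66 ± 0.11 and Car13 rose by 0.86 ± 0.14, beside the fall of Car2.
Tissue kallikreins, secreted proteases that share much sequence, had 4 of 11 called lower and none higher (36.4%, against 25.4% of all genes). Their median of -0.36 was -0.67 with WT arrays 1 to 4 and -0.04 with WT arrays 5 to 8 alone. Klk1b8 read 7.49, 7.85, 5.45 and 7.63 against 9.94 to 10.39 and fell by 3.03 ± 0.29 (adjusted p = 4.8e-07), 8.18-fold. Klk1 fell by 2.22 ± 0.26 and Klk1b5 by 1.68 ± 0.21, with groups apart in all 3. Glycolytic isozymes of somatic cells had 7 of 16 called higher and 2 lower (56.2%, against 25.4% of all genes). Hk1 fell by 0.77 ± 0.09 while Pgam1 rose by 0.64 ± 0.11.

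No listed gene of dividing cells or of tissue next to the testis was called. With limma, 0 of 14 mitotic cell cycle genes were called, where 25.4% of all genes were, and 2 had an unadjusted p under 0.05. None of the 8 epididymis genes or 7 adipose genes had an unadjusted p under 0.05. Reference genes were not flat: 3 of 7 were called higher (42.9%, against 25.4% of all genes). The median of the 7 was 0.24 against 0.03 over all genes. B2m, part of MHC class I, rose by 1.01 ± 0.20 (adjusted p = 0.00080). The count of 3 was 1 without srKO array 2.

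**Figure D3:**
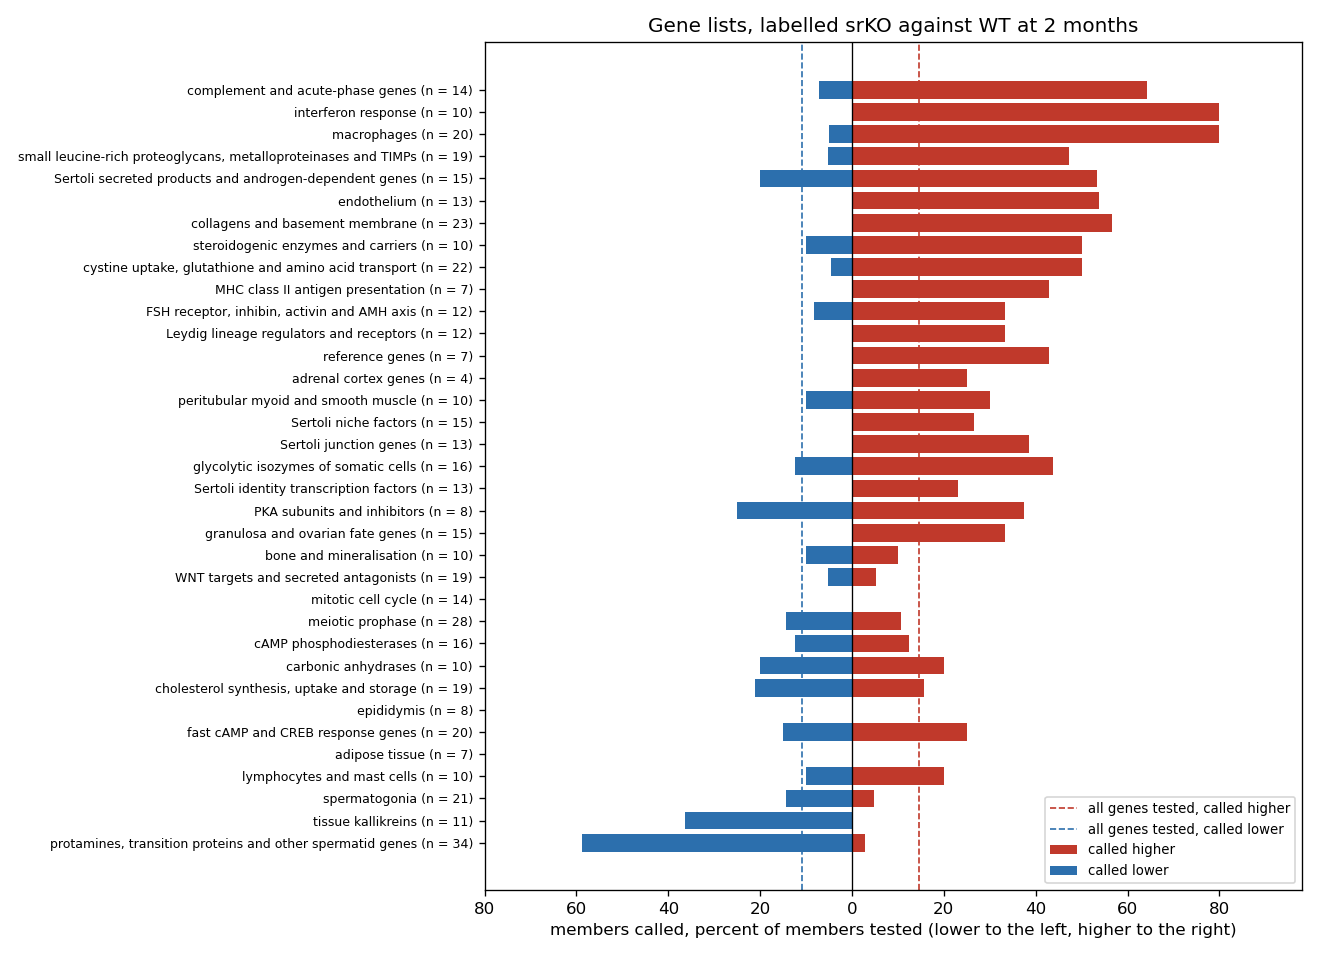
Percent of tested members called higher (red, to the right) or lower (blue, to the left) in srKO against WT at 2 months, for each list with at least 4 genes tested, ordered by median difference. Dashed lines mark the shares over all genes, 14.7% higher and 10.8% lower, and the spermatid list has 20 of 34 members called lower.

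The difference between srKO and WT was set against the same difference at 2 weeks in a fit over all 8 groups. It differed between ages for 3278 of 19007 genes (17.2%), more positive at 2 months for 1613 (8.49%) and more negative for 1665 (8.76%), and by at least 2-fold for 597 (3.14%). These values share the 2-month arrays with the contrast above. Serpina3n differed by -0.06 at 2 weeks, so that the difference between ages was 3.20 ± 0.61 (limma, adjusted p = 0.00022). Prnd differed by 0.12 at 2 weeks, on arrays that read 7.14 to 7.68 in srKO and 6.81 to 7.75 in WT. Its difference between ages was -3.72 ± 0.20 (adjusted p = 2.2e-15), and -1.86 with its 2 probe sets averaged.
By the brighter probe set, Prnd in WT was higher at 2 months than at 2 weeks, and in srKO it was lower. For Prm1, Tnp1 and Klk1b8 the 2-week arrays of both groups were far below the adult WT level, with Klk1b8 at 3.35 to 3.45 in srKO and 3.09 to 3.51 in WT. Inha was already higher at 2 weeks (0.43, adjusted p = 0.028) and the difference grew by 0.92 ± 0.15. Prkar2b was also higher at 2 weeks (0.78, adjusted p = 0.0023), and grew by 0.46 ± 0.16 (adjusted p = 0.046). Pde10a went the other way, with a difference between ages of -0.89 ± 0.16 (adjusted p = 0.00011). The largest positive differences also included Timp1 (2.67), the myeloid receptor Lilrb4a (2.33), the interferon-induced GTPase Iigp1 (2.16) and Aplp1 (2.15). That of Iigp1 was 2.97 with WT arrays 1 to 4 alone and 1.36 with WT arrays 5 to 8 alone, and stayed called in both.

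Against the other lines at 2 months, srKO differed from prKO in 4860 genes (25.6%), 341 of them at least 2-fold (1.79%), and from lrKO in 5072 (26.7%), 705 of them at least 2-fold (3.71%). Against prKO 12.1% of all genes were called higher and 13.4% lower, and against lrKO 15.4% higher and 11.2% lower. The lean against prKO turned with the scaling, from 2304 higher and 2556 lower to 2466 and 2252 with centring and 2667 and 2275 after a further quantile normalization. All of these contrasts share the srKO arrays. Against lrKO, Prnd (-3.84), Fshr (-1.36), Prm1 (-2.33) and Prkar2a (-2.27) were lower in srKO, and Inha (1.20), Timp1 (2.60), C4b (2.64) and Hsd17b3 (2.28) were higher. Hsd17b3 read 7.81 to 8.40 in lrKO, 9.15 to 9.80 in WT and 10.10 to 10.87 in srKO.
Cyp21a1 read 5.44 to 6.47 in lrKO, which overlapped srKO, and the difference was not called (0.48, adjusted p = 0.26).

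Against prKO, spermatid genes had 10 of 34 members called higher in srKO and 1 lower, and meiotic genes 14 of 28 higher and none lower. Collagens and basement membrane genes had 15 of 23 called lower, small proteoglycans and TIMPs 13 of 19, and cholesterol genes 14 of 19. The collagen median was -0.73. Adipose genes moved with these lists, with 5 of 7 called lower than in prKO and a median of -1.52, and their part in the differences was not tested. Fabp4, a fatty-acid binding protein of fat cells, read 4.74, 8.48 and 10.25 on the prKO arrays in order of level, against 4.14 to 5.17 in srKO. Without prKO array 3 the spermatid genes called higher were 3 and the collagen and basement membrane genes called lower were 10. Dpt, a matrix protein, read 6.13, 7.26, 5.94 and 5.72 in srKO and 9.77 to 10.26 in prKO, a difference of -3.70 ± 0.34 (limma, adjusted p = 2.0e-06). Timp1 was lower than in prKO by 1.23 ± 0.28 and Cyp21a1 by 1.55 ± 0.33. Prnd (0.37, adjusted p = 0.12) and Inha (-0.03, adjusted p = 0.91) were not called between the lines.
Some genes were higher in srKO than in prKO. H2-Aa read 5.34 to 5.47 in prKO and was higher in srKO by 1.66 ± 0.25 (adjusted p = 0.00026). Iigp1 read 6.79, 7.89, 7.29 and 7.60 in srKO, 5.40 to 6.53 in WT and 5.74 to 5.81 in prKO, and was higher than in prKO by 1.61 ± 0.25 (adjusted p = 0.00026). Interferon response genes as a list had 0 of 10 called against prKO in either direction, with a median of 0.17. Hsd3b6 was higher than in prKO by 1.98 ± 0.35 and Abca1 by 0.59 ± 0.14. Prkar1a itself was higher than in prKO by 0.53 ± 0.10 (adjusted p = 0.00093).
The prKO group held 3 arrays with correlations of 0.949 to 0.976, and Adam7 read 11.70 on prKO array 1. Without that array the spermatid genes called higher were 11, the collagen and basement membrane genes called lower 17 and the cholesterol genes called lower 14. H2-Aa and Iigp1 differed from prKO by 1.63 and 1.59 without it, and Hsd3b6 by 2.41. Without prKO array 3 the count over all genes was 2683, and in a fit of srKO and prKO alone it was 1083.

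**Figure D4:**
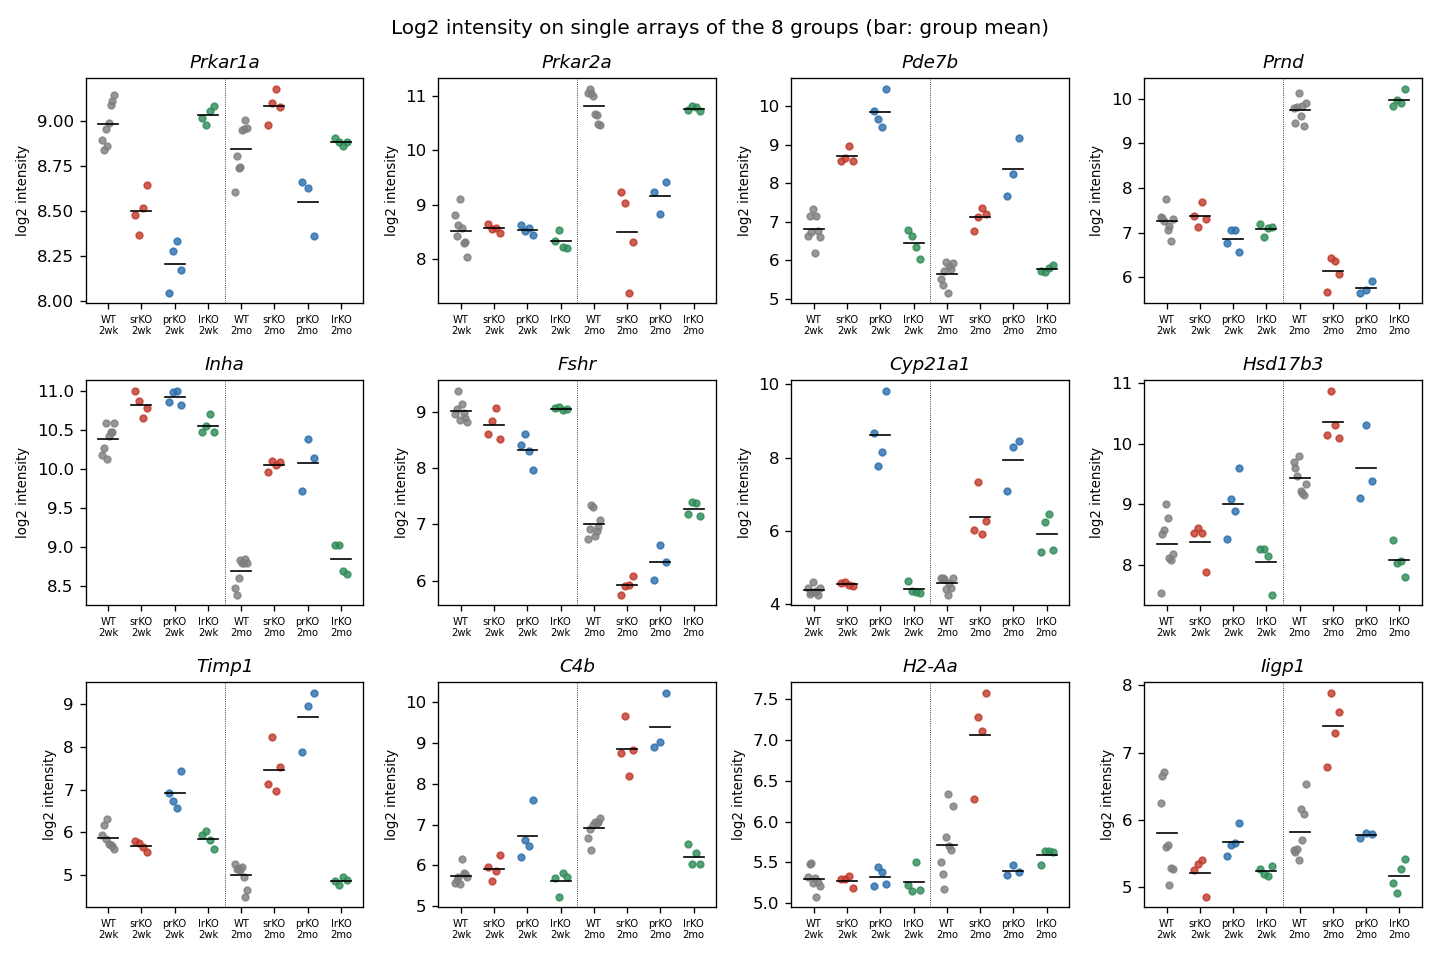
Log2 intensity (vertical axes) of 12 genes on single arrays (points) with the group mean (bar), for WT, srKO, prKO and lrKO at 2 weeks (left of the dotted line) and 2 months (right). Prkar1a in srKO is 8.36 to 8.64 at 2 weeks and 8.98 to 9.18 at 2 months, and Inha in srKO at 2 months lies above all WT arrays of that age.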

How the data were processed

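Groups were taken from the sample titles. The authors deposited 1 log2 intensity for each probe set and Affymetrix array, after RMA per the submitters' processing notes. The sources used here do not give its version, its settings, the build or any batch. RMA compresses dim signals, so differences near the floor are understated. Of 41345 probe sets, 23521 had 1 gene symbol, 1814 several and 16010 none listed; 23328 matched a RefSeq gene table by Entrez identifier and 0 symbols changed. Of 22180 genes, 1082 had several probe sets and the one with the highest mean was used. A gene was tested when at least 1 of 8 group means passed the 25th percentile of all values (4.62).

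The 4 genotypes at 2 months were fitted together in limma 3.58.1 (R 4.3.3; lmFit, eBayes), and all 8 groups for the difference between ages. All tests are two-sided, p-values were adjusted by Benjamini-Hochberg over 19007 genes with a threshold of 0.05, and the script was tested on simulated data. Precision is limited by the number of arrays. The 36 gene lists (567 genes, 496 tested) and the comparison were chosen with earlier results of these data known. Genes were named by rule: Prkar1a, the 12 largest rises and falls, up to 4 called members per list with the largest difference (1 where none was called) and 5 age differences each way, passing over model, miRNA and receptor-family names; other list members named, and the split of the spermatid list, were chosen after their values were seen. The annotation for probe positions was not used here.

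Alternatives covered filters, averaging of probe sets, normalization, array weights, trend, fit groups, single arrays left out, WT arrays 1 to 4 or 5 to 8 alone and a replicate block; leaving out the arrays high in Adam7, list counts under each setting and leaving out prKO arrays for list counts were chosen after seeing the data.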

Additional observations from a re-analysis of the deposited data

Results flagged for a closer look

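Among 278 groups of single genes looked at, 22 held an array whose gap to its nearest neighbour was large for the range of its group, 12 in srKO and 10 in WT. Chance gives about 1 in 20 such groups. In srKO array 2 these were high values of Il13ra1 (8.41, nearest 7.80), Nr5a1 (8.37, nearest 7.84), Gata4 (8.47, nearest 8.23), Csf1 (7.71, nearest 7.19), Abca1 (10.55, nearest 9.82) and Ctss (9.12, nearest 8.39). In srKO array 1 they were low Egr1 (5.65, nearest 6.22) and Myl9 (8.84, nearest 9.36) and high Cldn5 (6.89, nearest 6.47), Tagln (7.01, nearest 6.77) and Adam7 (5.56, nearest 4.30). In srKO array 3 it was low Klk1b8 (5.45, nearest 7.49).

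In WT array 4 the values were high for Syce3 (9.63, nearest 9.33), Acta2 (10.21, nearest 9.91), Myl9 (9.38, nearest 8.99) and Lyz2 (7.76, nearest 7.24). In WT array 1, Serpina3n (7.11, nearest 6.06) and Plin1 (6.39, nearest 6.10) were high and Jam3 (7.63, nearest 7.89) was low. Single values were low Crem in WT array 5 (9.74, nearest 9.90), high Gstm2 in WT array 8 (8.77, nearest 8.41) and low Gapdh in WT array 2 (10.62, nearest 10.85).

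Effects that differed between ages by the interaction test in limma (2 months minus 2 weeks, log2) were those of Serpina3n (3.20), Timp1 (2.67), Lilrb4a (2.33), Iigp1 (2.16), Aplp1 (2.15), Prnd (-3.72), Bpifa3 (-3.20), Klk1b8 (-3.12), Hmgb1-rs17 (-3.12, and -2.40 without srKO array 3) and Car2 (-3.10).

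Outside the gene tests, 879 of 13417 probe sets without a single symbol (6.55%) were called between srKO and WT at 2 months, 470 higher and 409 lower.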

How the results depend on the processing

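Of 145 named results that were called, 115 stayed called in the same direction under every alternative run. The call was lost under at least 1 for 30, and 0 reversed. Most were picked as the largest called differences on these same arrays, so this tally follows largely from the choice. Over all genes, alternatives shared from 66.2% (replicate block) to 98.4% (trend and robust settings) of the 2-month srKO and WT calls. Of 4 named results not called, Mcm2 was gained under at least 1. The 2-month count of called genes, 4837, lay between 3514 and 4786 with single arrays left out and was 5460 with array weights. It was 4152 with WT arrays 1 to 4 alone, 3645 with WT arrays 5 to 8 alone and 3626 with a replicate block (3201 shared with the fit without it). At 2 months only WT has replicate numbers 5 to 8, so the block takes those arrays out of the srKO and WT difference. The differences with the block are thus those of WT arrays 1 to 4 alone (median over all genes 0.02 in both), and the 2 are not separate checks. Replicate numbers were shared only by number: correlations of same-numbered srKO and WT arrays were 0.21, 0.00, -0.13 and 0.01, and 1 of 4 srKO arrays correlated best with its own number. With the block, and so without WT arrays 5 to 8 in the difference, 2 rather than 8 fast cAMP and CREB genes were called. Of the somatic glycolytic genes 4 rather than 9 were called. For the difference between ages the count of 3278 became 4975 with array weights, 3429 with the replicate block, and 2447 to 3527 with single arrays left out. Against prKO the count of 4860 became 1083 when only srKO and prKO were fitted, 3348 with the block, and 2683 (without prKO array 3) to 5253 with single arrays left out. Against lrKO the count of 5072 was 4278 with the block, 3814 to 4978 with single arrays left out. The cause was not tested, except that the fit of srKO and prKO alone has 7 arrays. The block also takes WT arrays 5 to 8 out of the 2-month srKO and WT difference, as stated above. Values near 0 that changed sign were Adam7 without WT array 4 (0.0318; -0.4859 to 0.0318 over single arrays left out) and Slc4a1 without srKO array 2 (0.0147; -0.1052 to 0.0147 likewise) or with WT arrays 5 to 8 alone (0.0768).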
